A study of Homo sapiens with 6 samples.

Results

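The genes described here are 50 genes of squamous differentiation and of the cornified envelope, found by their symbols in the deposited expression table of 58676 genes, with 1 row for each of the 50. The list was drawn up with earlier results of these data known, starting from the rise of CSTA, and it was filled by gene function. It holds cystatins, precursors and scaffold proteins of the envelope, transglutaminases, kallikreins, protease inhibitors, lipid barrier genes and squamous transcription factors. Because the comparison of BCL9 KD with NS control led to the list, its values are a description of these genes, and no p-value is given for CSTA.

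RNA sequencing was performed on DCIS.COM, an established human breast cell line of basal type that serves as a model of ductal carcinoma in situ (DCIS). The NS control cells carried a PLKO.1 non-silencing shRNA and the BCL9 KD cells a PLKO.1 shRNA against BCL9, a coactivator of Wnt signaling, and both were delivered by lentiviral vectors. All cells grew in T75 flasks in DMEM/F12 with horse serum, and each of the 3 NS control and 3 BCL9 KD replicates was its own flask. The labels do not say whether the flasks of a group came from separate transductions, and a single shRNA was used, so loss of BCL9 and any other effect of that shRNA cannot be told apart.

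Stratified epithelia such as the epidermis build a barrier as their cells leave the basal layer. Precursor proteins such as involucrin and the small proline-rich proteins are laid under the cell membrane and joined by transglutaminases into the cornified envelope, while kallikreins, held in check by protease inhibitors, later cut the junctions between the dead cells. Many of the precursor genes sit side by side in the epidermal differentiation complex on chromosome 1. A mammary gland does not normally make a cornified envelope, but basal-type breast cells share keratins and p63 with keratinocytes.

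The FPKM values, which are read counts scaled to gene length and to the reads counted in a sample, rested on 15222452 to 22712638 reads in NS control and 15665714 to 26949026 reads in BCL9 KD samples. Values of single samples are given here in the order of their replicate numbers. BCL9 was 6.25, 6.24 and 5.34 FPKM in NS control and 2.86, 2.78 and 2.59 FPKM in BCL9 KD, with no overlap (log2 fold change −0.99, standard error 0.0933, limma adjusted p = 0.00773). Its adjusted p was 0.0636 without NS control replicate 2, 0.0589 without BCL9 KD replicate 2 and 0.0700 without BCL9 KD replicate 3. KRT5 was at 379 to 436 FPKM, KRT14 at 31.7 to 40.6 FPKM and TP63, the gene of p63, at 12.5 to 18.3 FPKM over the 6 samples. ESR1 was at most 0.0980 FPKM and PGR had no reads. Of 18 markers of fibroblasts, endothelial cells, leukocytes and melanocytes, 3 had no reads and the summed level was 3.11 to 3.77 FPKM in NS control and 4.37 to 5.21 FPKM in BCL9 KD, most of it PECAM1 (log2 fold change 0.61, limma adjusted p = 0.0477), while VWF was at most 0.0307 FPKM. The part of these markers in the results was not tested.

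Promoter sequence is given first, since neither the choice of the list nor the expression values used it. RefSeq promoter windows on GRCh38.p14, from 250 bases before to 50 bases after a transcription start site, were at hand for 36 of the 50 genes, with 47 windows in all because some genes have several start sites. AP-1 is the dimer of JUN and FOS proteins that drives many keratinocyte genes, and its core site was searched as TGANTCA, which reads the same on both strands apart from the middle base. Below are the windows of 5 genes, chosen to show an AP-1 match in 3 envelope precursors and in the secreted proteins LCN2 and SBSN. The first is the small proline-rich gene SPRR1B at chr1:153030953-153031252 on the plus strand and the second is SPRR2A at chr1:153057463-153057762 on the minus strand. The others are IVL, which encodes involucrin, at chr1:152908296-152908595 (plus), LCN2 at chr9:128149203-128149502 (plus) and SBSN at chr19:35528262-35528561 (minus). Capitals mark the matches to TGANTCA.
SPRR1B: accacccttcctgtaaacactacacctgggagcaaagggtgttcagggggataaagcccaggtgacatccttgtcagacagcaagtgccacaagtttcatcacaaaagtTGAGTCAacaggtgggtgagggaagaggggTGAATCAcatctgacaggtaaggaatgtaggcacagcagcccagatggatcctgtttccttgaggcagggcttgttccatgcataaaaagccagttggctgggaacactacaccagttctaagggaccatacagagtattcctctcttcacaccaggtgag
SPRR2A: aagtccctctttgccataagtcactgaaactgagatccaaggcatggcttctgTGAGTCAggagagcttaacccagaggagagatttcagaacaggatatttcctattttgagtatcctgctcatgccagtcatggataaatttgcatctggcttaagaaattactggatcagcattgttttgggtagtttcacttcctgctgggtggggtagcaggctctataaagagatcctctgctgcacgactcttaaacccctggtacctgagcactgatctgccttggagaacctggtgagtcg
IVL: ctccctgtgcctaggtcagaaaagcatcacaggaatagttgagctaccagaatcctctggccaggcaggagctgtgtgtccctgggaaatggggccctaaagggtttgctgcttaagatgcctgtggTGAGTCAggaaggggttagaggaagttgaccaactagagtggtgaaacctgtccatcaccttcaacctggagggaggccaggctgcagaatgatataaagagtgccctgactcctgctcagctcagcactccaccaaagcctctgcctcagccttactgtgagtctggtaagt
LCN2: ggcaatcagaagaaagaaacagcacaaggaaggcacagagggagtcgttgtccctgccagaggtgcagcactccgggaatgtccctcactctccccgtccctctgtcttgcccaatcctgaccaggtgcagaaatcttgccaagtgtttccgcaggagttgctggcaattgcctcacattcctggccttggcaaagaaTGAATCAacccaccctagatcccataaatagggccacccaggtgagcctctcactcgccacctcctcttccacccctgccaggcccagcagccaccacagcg
SBSN: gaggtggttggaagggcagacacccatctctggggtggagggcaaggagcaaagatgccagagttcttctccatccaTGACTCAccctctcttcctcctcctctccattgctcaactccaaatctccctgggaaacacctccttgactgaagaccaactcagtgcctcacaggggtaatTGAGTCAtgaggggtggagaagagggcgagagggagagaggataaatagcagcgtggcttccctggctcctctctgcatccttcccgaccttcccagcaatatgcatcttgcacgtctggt

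A match to TGANTCA was found in 17 of the 47 windows (36.2%), against 7.71% of 35116 windows of all genes. By gene, 15 of the 36 genes had it (41.7%), against 9.37% of 27305 genes. In the sequences above, SPRR1B and SBSN hold 2 matches each, whose first bases lie at −141 and −111 from the SPRR1B start site and at −173 and −71 from that of SBSN. The match begins at −197 in SPRR2A, at −123 in IVL and at −52 in LCN2. Of the 8 genes of the epidermal differentiation complex with a window, 7 held a match. These 15 genes include 8 that were expressed enough to enter the fit and 7 that were not. Among the tested genes with a match were LCN2, which rose in BCL9 KD cells, and IVL, which fell.

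**Figure D1:**
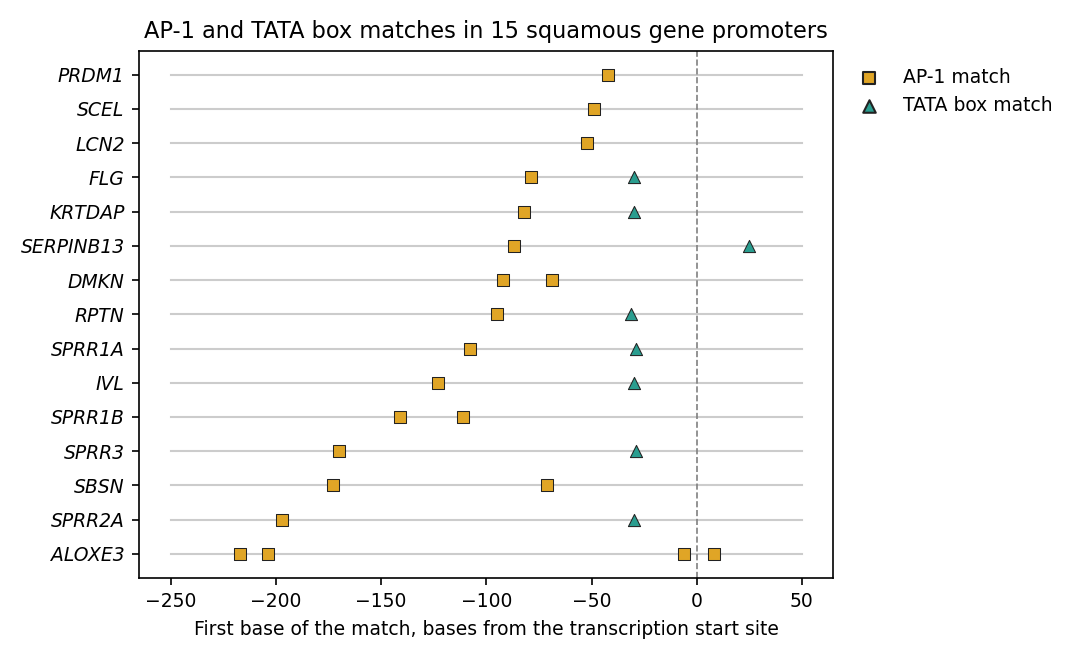
Positions of matches to the AP-1 core site (squares) and to the TATA box (triangles) in the promoter windows of the 15 genes with an AP-1 match. The x axis gives the first base of the match in bases from the transcription start site, from 250 before to 50 after, each row is a gene, and every annotated start site of ALOXE3 and DMKN is shown on its row. The AP-1 matches spread from −217 to 8, whereas 7 of the 8 TATA matches shown begin between −31 and −29.

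The other motifs searched, on both strands, were in fewer of these windows than AP-1, and no matches of different motifs overlapped. TTCNNNGAA, the core of a STAT site, was in 2 of 47 windows (4.26%), those of SERPINB1 and DMKN, against 7.66% of all windows. CTTTGAT, a core of the TCF/LEF site through which BCL9 acts in Wnt signaling, was in 1 window, that of TGM5, against 2.62% of all windows. AACCNGTT, the site of the grainyhead-like factors to which GRHL1 and GRHL3 belong, was in 3 windows (6.38%), of RPTN, SPINK5 and TGM5, against 1.73%. The C/EBP core TTGCNNAA was in 8 windows (17.0%) against 10.5%, and the TATA box TATAAA in 11 (23.4%) against 11.5%. A match is a string of letters and not a bound site, and no window of CSTA, CSTB, SPRR2D, SPRR2E, CRCT1, EVPL, PPL, TGM1, KLK8, PI3, SLPI, OVOL1, ZNF750 or RHCG was used.

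DCIS.COM cells expressed KLK5, the inhibitors PI3 and SLPI, LCN2, CSTB and the plakins at 21.5 to 270 FPKM in NS control, while many late envelope genes were at or near 0. Of the 50 genes, 25 had a mean of at least 0.5 FPKM over the 6 samples and entered the fit, and 25 did not. The highest was KLK5, a trypsin-like protease that starts the kallikrein cascade, with a mean of 270 FPKM in NS control, rank 97 among the 13745 genes tested. PI3 (elafin), SLPI, LCN2, PPL (periplakin) and CSTB followed with means of 38.2 to 57.6 FPKM in NS control. Then came EVPL (envoplakin) at 21.5 FPKM, DMKN (dermokine) at 13.2 FPKM and CSTA at 6.87 FPKM. IVL, the envelope precursor used most often as a marker of squamous cells, had 1.92 FPKM. SPRR1B and SPRR2D had NS control means of 0.275 and 0.498 FPKM and passed the filter through their BCL9 KD values, and PRDM1, with a BCL9 KD mean of 0.492 FPKM, through its NS control values, so no p-value is given for these 3 genes.

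**Figure D2:**
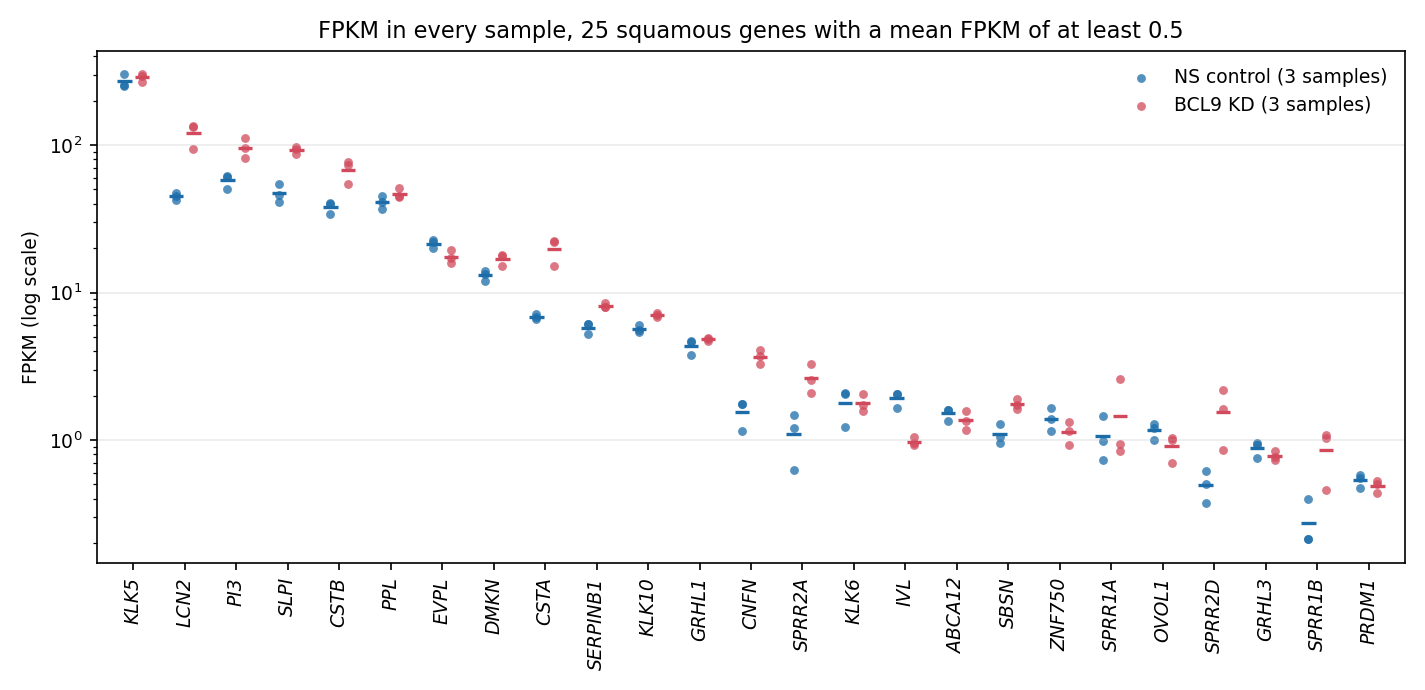
FPKM in each sample, on a log scale, for the 25 genes with a mean of at least 0.5 FPKM, ordered by mean level. Points are samples, 3 per group, and short bars are group means. KLK5 lies near 300 FPKM in both groups, LCN2, PI3, SLPI, CSTB and CSTA are higher in all BCL9 KD samples, and IVL is lower in all of them.

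The 25 genes under the filter included several genes of late differentiation. No read was counted in any sample for LCE3D, RPTN (repetin), CRCT1, CDSN (corneodesmosin, which holds cornified cells together), TGM3, SERPINB4, RHCG or MAL. At these depths, 3 reads in the shallowest sample, the upper limit that a count of 0 allows, correspond to 0.0552 to 0.321 FPKM depending on gene length, for counting error only. SPRR3 and SPRR2E had 3 and 5 reads in all. FLG, which encodes filaggrin, had 30 reads over its 12747 bases, at most 0.0266 FPKM. TGM1, the main transglutaminase of the envelope, had 0.265 to 0.352 FPKM in NS control and 0.298 to 0.342 FPKM in BCL9 KD. TGM5 had 0.255 to 0.391 FPKM and 0.226 to 0.376 FPKM in the same order. The lipoxygenases ALOX12B and ALOXE3, which make the lipid coat of the envelope, were at most 0.383 and 0.557 FPKM, and the suprabasal gene KRTDAP at most 0.497 FPKM. KLK7, KLK8, KLK11, SPINK5, SERPINB13 and CALML3 were at most 0.142 FPKM.

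A further 3 genes under the filter had BCL9 KD values that were all above the NS control values, as did 9.58% of 6586 untested genes with at least 10 reads in all. SERPINB3, a squamous cell carcinoma antigen, had 0, 1 and 4 reads in NS control and 10, 15 and 11 reads in BCL9 KD. SCEL (sciellin) had 4, 7 and 7 reads in NS control and 25, 23 and 13 reads in BCL9 KD. CALML5, a calmodulin-like protein of the skin, had 6, 5 and 5 reads against 6, 10 and 11 reads, which is 0.288 to 0.382 FPKM against 0.395 to 0.817 FPKM. In a fit without a filter their limma adjusted p-values were 0.112 for SERPINB3, 0.194 for SCEL and 0.521 for CALML5. SERPINB3 lies over SERPINB4 on the same strand in the annotation and is close to it in sequence, so reads that fit both may not have been counted for either.

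In BCL9 KD cells CSTA, the starting point of the list, was higher. CSTB, LCN2, SLPI, PI3, SERPINB1 and CNFN rose and IVL fell, while none of the 4 squamous transcription factors tested passed. Of the 21 genes tested apart from CSTA, SPRR1B, SPRR2D and PRDM1, 7 passed an adjusted p-value of 0.05 in the fit across all 13745 genes, 6 of them higher in BCL9 KD. Over all genes tested, 5.87% passed, 2.96% higher and 2.91% lower, and since the comparison led to the list nothing is read from the difference. The median log2 fold change was 0.25 over the 21 genes and 0.04 over all genes tested, with values from −0.71 for IVL to 1.39 for LCN2. The BCL9 KD values were all above the NS control values for 10 of the 21 genes and all below for 2, against 17.8% and 16.4% of all genes tested. The 7 calls depended on the samples: they fell to 0 without NS control replicate 2, without BCL9 KD replicate 2 or without BCL9 KD replicate 3, and were 7 without NS control replicate 1, 8 without NS control replicate 3, where KLK10 was added, and 6 without BCL9 KD replicate 1, where SERPINB1 was lost (adjusted p = 0.0569). Fits without NS control replicate 2, BCL9 KD replicate 2 and BCL9 KD replicate 3 called 12, 13 and 5 genes of all tested, against 807 with every sample, so the calls of single genes below were also lost in them. Those without NS control replicate 1, NS control replicate 3 and BCL9 KD replicate 1 called 690, 1729 and 748 genes of all tested. With no filter on FPKM, which called 142 of all genes, the calls of CNFN, CSTB, IVL, PI3 and SERPINB1 were lost at adjusted p-values of 0.0741 (CNFN) to 0.10 (PI3), and those of LCN2 and SLPI remained. In bulk RNA, more cells that express a gene and more RNA per cell cannot be told apart, which holds for every change below.

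**Figure D3:**
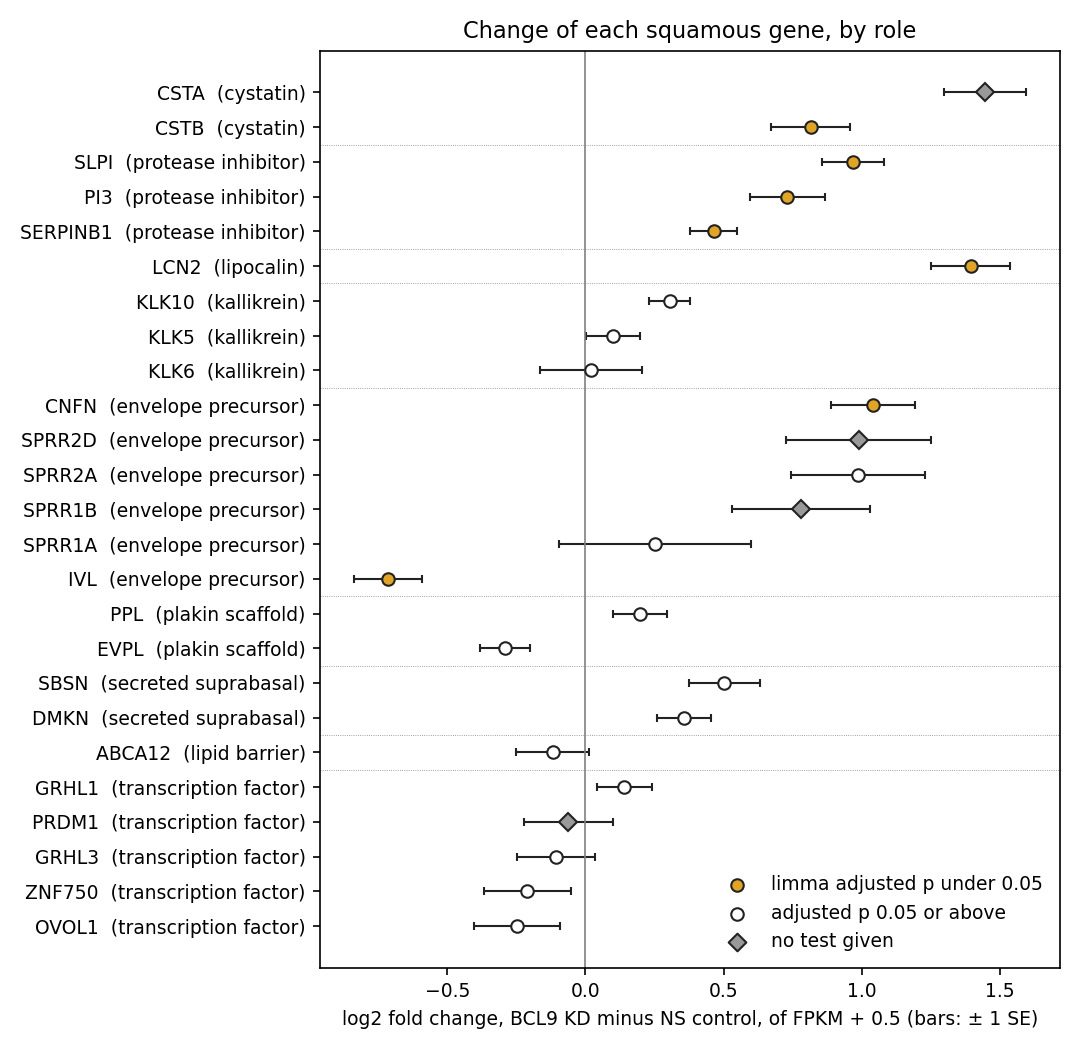
Log2 fold change of FPKM + 0.5, BCL9 KD minus NS control, of the 25 genes in the fit, grouped by role. Points are fitted values, bars are ± 1 standard error, filled circles have a limma adjusted p-value under 0.05, and grey diamonds are CSTA, SPRR1B, SPRR2D and PRDM1, for which no test is given. CSTB, all 3 tested protease inhibitors, LCN2 and CNFN are filled and above 0, IVL is filled and below 0, and no kallikrein or transcription factor is filled.

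The cystatins are inhibitors of cysteine proteases of the cathepsin family, and CSTA is also built into the envelope of keratinocytes. CSTA (ENSG00000121552), on chromosome 3 of hg38 from 122325244 to 122341972, was 6.83, 6.59 and 7.18 FPKM in NS control and 15.2, 21.9 and 22.4 FPKM in BCL9 KD. The groups did not overlap, and BCL9 KD replicate 1 lay below the other two BCL9 KD samples. The mean was 2.89 times as high in BCL9 KD, with a log2 fold change of 1.45 (standard error 0.149), on 150 to 213 reads in NS control and 369 to 810 reads in BCL9 KD. CSTB (ENSG00000160213), on chromosome 21 from 43772512 to 43776445, is its ubiquitous paralog and not specific to squamous cells. It was 40.5, 34.3 and 39.7 FPKM in NS control and 54.3, 77.3 and 72.9 FPKM in BCL9 KD, again with replicate 1 lowest in BCL9 KD. The fitted log2 change was 0.82 ± 0.143 (SE) with limma adjusted p = 0.0319.

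Of the 7 genes grouped as protease inhibitors beside the cystatins, 3 were expressed enough to be tested, and all 3 rose, beside 2.96% higher over all genes tested. SLPI and PI3 are small secreted inhibitors of neutrophil elastase with a whey acidic protein fold, and their genes lie within 79.7 kb of each other on chromosome 20. SLPI was 54.8, 41.4 and 45.9 FPKM in NS control and 86.6, 96.6 and 94.8 FPKM in BCL9 KD (log2 fold change 0.97, standard error 0.112, limma adjusted p = 0.0117). PI3, which transglutaminases can attach to the envelope, was 60.7, 50.1 and 62.0 FPKM in NS control and 81.9, 111 and 95.6 FPKM in BCL9 KD (log2 fold change 0.73, standard error 0.134, limma adjusted p = 0.0340). SERPINB1, an intracellular inhibitor of elastase that is abundant in neutrophils, was 6.08, 5.22 and 6.09 FPKM in NS control and 8.05, 8.50 and 7.96 FPKM in BCL9 KD. Its change of 0.46 ± 0.0857 (log2, SE) at limma adjusted p = 0.0344 was the smallest that passed among the 50 genes. Its call was lost with median-of-ratios scaling (limma adjusted p = 0.0512). None of these groups overlapped. The 4 inhibitors not tested were SPINK5, which restrains kallikreins in the skin, and SERPINB3, SERPINB4 and SERPINB13.

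LCN2 (lipocalin 2) is a secreted protein that binds bacterial siderophores and is made by many inflamed epithelia. It was 42.7, 45.2 and 47.6 FPKM in NS control and 94.7, 133 and 135 FPKM in BCL9 KD, with BCL9 KD replicate 1 the lowest of its group. The fitted log2 change was 1.39 ± 0.142 (SE) with limma adjusted p = 0.00942, close to that of CSTA, on 1157 to 1549 reads in NS control and 2676 to 5712 reads in BCL9 KD. For CSTA and for 5 of the 6 other genes that were higher, all but SERPINB1, BCL9 KD replicate 1 was the lowest of the 3 BCL9 KD samples, and among all 407 genes that passed and were higher for 66.6%. BCL9 itself was highest in this replicate among the BCL9 KD samples, at 2.86 FPKM, against 2.78 and 2.59 FPKM in the others. Whether the differences go together was not tested.

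The kallikreins are secreted serine proteases whose genes lie within 84.7 kb of each other on chromosome 19. They had no call among the 3 tested in limma, beside 5.87% called over all genes tested. There was 1 unadjusted limma p under 0.05 (KLK10), and voom gave no call. KLK5 was 303, 252 and 255 FPKM in NS control and 269, 302 and 296 FPKM in BCL9 KD, with overlapping groups (log2 fold change 0.10, standard error 0.0970, limma adjusted p = 0.524). KLK6 was 2.07, 1.23 and 2.06 FPKM in NS control and 1.72, 2.07 and 1.58 FPKM in BCL9 KD, and its log2 difference of 0.02 (standard error 0.185, limma adjusted p = 0.953) changed sign with another scaling and without some samples. KLK10 was 5.55, 5.39 and 5.98 FPKM in NS control and 6.87, 7.08 and 7.29 FPKM in BCL9 KD, all above NS control (log2 fold change 0.30, standard error 0.0754, limma adjusted p = 0.0606). It passed with a correction for GC content (limma adjusted p = 0.0410), a setting that called 1752 genes of all tested against 807. KLK7, the chymotrypsin-like partner of KLK5 in the skin, had at most 5 reads in a sample. Antisense genes lie over KLK5, KLK6 and KLK10 in the annotation, each at a mean of at most 0.779 FPKM, and reads of both strands cannot be told apart, since no strand setting of the counting is given.

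Among the 12 envelope precursors, 6 passed the filter, and CNFN and IVL passed in opposite directions. CNFN (cornifelin), a cysteine-rich component of the envelope, was 1.75, 1.15 and 1.74 FPKM in NS control and 3.28, 4.06 and 3.71 FPKM in BCL9 KD. The fitted log2 change was 1.04 ± 0.153 (SE) with limma adjusted p = 0.0205, on 14 to 24 reads in NS control and 35 to 66 reads in BCL9 KD. IVL (ENSG00000163207) was 1.66, 2.07 and 2.04 FPKM in NS control and 1.05, 0.948 and 0.919 FPKM in BCL9 KD, so its mean fell to 0.506 of that in NS control. The fitted log2 change was −0.71 ± 0.124 (SE) with limma adjusted p = 0.0308, on 67 to 90 reads in NS control and 31 to 55 reads in BCL9 KD, and the adjusted p was 0.0917 with no filter on FPKM. Involucrin is the scaffold to which other precursors are joined, and the promoter of its gene, printed above, has an AP-1 match as those of SPRR1B and SPRR2A do.

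The small proline-rich genes, whose products bridge the envelope proteins, had 4 members above the filter, of which SPRR1B and SPRR2D were there only through their BCL9 KD values. SPRR2A was 1.49, 0.627 and 1.20 FPKM in NS control and 2.55, 3.30 and 2.07 FPKM in BCL9 KD, all above NS control (log2 fold change 0.99, standard error 0.242, limma adjusted p = 0.0594). SPRR2D was 0.50, 0.374 and 0.621 FPKM in NS control and 0.856, 1.61 and 2.17 FPKM in BCL9 KD, also without overlap (log2 fold change 0.99, standard error 0.263). SPRR2A passed with the GC correction, at an adjusted p-value of 0.0317, a setting that called 1752 genes of all tested against 807. SPRR1B was 0.213, 0.399 and 0.212 FPKM in NS control and 0.456, 1.08 and 1.03 FPKM in BCL9 KD, without overlap but on 2 to 18 reads (log2 fold change 0.78, standard error 0.25). SPRR1A was 0.978, 1.46 and 0.730 FPKM in NS control and 0.838, 2.61 and 0.946 FPKM in BCL9 KD, on 3 to 19 reads, and these overlapping values gave a log2 fold change of 0.25 with a standard error of 0.348 (limma adjusted p = 0.663). The SPRR2 genes are near-identical copies, so reads that match several of them may have been dropped and their levels are uncertain.

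The plakins, which anchor the envelope to keratin filaments and desmosomes, did not pass. EVPL was 22.6, 21.9 and 20.1 FPKM in NS control and 19.3, 16.0 and 17.3 FPKM in BCL9 KD, all below NS control (log2 fold change −0.29, standard error 0.0911, limma adjusted p = 0.10). PPL, its dimer partner, was 45.1, 41.0 and 36.8 FPKM in NS control and 51.1, 45.0 and 44.6 FPKM in BCL9 KD, with overlapping groups (log2 fold change 0.20, limma adjusted p = 0.239). The 2 plakins thus had values on opposite sides of 0.

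The secreted suprabasal proteins SBSN and DMKN, neighbours on chromosome 19, were above NS control in every BCL9 KD sample without passing. SBSN (suprabasin) was 1.29, 1.05 and 0.959 FPKM in NS control and 1.62, 1.91 and 1.74 FPKM in BCL9 KD (log2 fold change 0.50, standard error 0.128, limma adjusted p = 0.0644). DMKN was 13.3, 12.1 and 14.1 FPKM in NS control and 15.1, 18.1 and 17.8 FPKM in BCL9 KD (log2 fold change 0.36, standard error 0.0979, limma adjusted p = 0.0748). Both passed with the GC correction, at adjusted p-values of 0.0226 and 0.0376, a setting that called 1752 genes of all tested against 807. ABCA12, the lipid transporter of lamellar granules, was 1.34, 1.61 and 1.6 FPKM in NS control and 1.57, 1.34 and 1.17 FPKM in BCL9 KD, which overlap (log2 fold change −0.12, limma adjusted p = 0.579).

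Of the 5 transcription factors of the list, the 4 tested did not pass in limma or voom, none had an unadjusted p under 0.05, and the groups overlapped for all 5. Over all genes tested, 5.87% passed in limma, and 17.8% lay wholly above and 16.4% wholly below NS control, so nothing is read from these counts. GRHL1 was 3.76, 4.68 and 4.61 FPKM in NS control and 4.94, 4.66 and 4.88 FPKM in BCL9 KD (log2 fold change 0.14, standard error 0.10, limma adjusted p = 0.389). GRHL3, which drives barrier formation, was 0.961, 0.928 and 0.75 FPKM in NS control and 0.732, 0.763 and 0.842 FPKM in BCL9 KD (log2 fold change −0.11, standard error 0.142, limma adjusted p = 0.647). The values of these grainyhead-like factors were on either side of 0. GRHL3 is overlapped on the other strand by STPG1, which had a mean of 0.912 FPKM against 0.830 FPKM for GRHL3, and reads of both strands cannot be told apart. OVOL1, a zinc finger repressor that helps cells leave the cycle, was 1.29, 1.21 and 1.01 FPKM in NS control and 1.03, 0.704 and 0.995 FPKM in BCL9 KD (log2 fold change −0.25, standard error 0.155, limma adjusted p = 0.333). ZNF750, a p63 target needed for late differentiation, was 1.15, 1.38 and 1.65 FPKM in NS control and 1.33, 0.929 and 1.15 FPKM in BCL9 KD (log2 fold change −0.21, standard error 0.157, limma adjusted p = 0.410), and it lies inside TBCD on the other strand, which had a mean of 12.5 FPKM. PRDM1 was 0.581, 0.551 and 0.474 FPKM in NS control and 0.506, 0.437 and 0.531 FPKM in BCL9 KD (log2 fold change −0.06, standard error 0.161). At these standard errors, small changes could not be told from none.

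By position, the calls were spread over the genome. The 11 genes of the epidermal differentiation complex, between 152153595 and 153106184 on chromosome 1, included 5 genes in the fit, 1 call (IVL, lower, beside 2.91% lower over all genes tested) and 3 genes without a read. PI3 and SLPI on chromosome 20 both rose. The other genes that were higher, CSTA, CSTB, LCN2, SERPINB1 and CNFN, lie on chromosomes 3, 21, 9, 6 and 19.

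Other genes of squamous differentiation were taken from a list made by function, with earlier results of these data known, as were the lists of regulators and basal genes that follow. Of its 98 genes in the table, 32 had no reads, 32 were tested and 7 passed, all higher in BCL9 KD, beside 2.96% higher over all genes tested. LYPD3, a surface protein of suprabasal keratinocytes, was 10.3 ± 0.945 FPKM in NS control and 20.7 ± 2.04 FPKM in BCL9 KD (SD, n = 3 each), with a log2 difference of 0.97 (limma adjusted p = 0.00977). S100A11 and S100A10, calcium-binding proteins that are cross-linked into the envelope, had log2 fold changes of 0.84 and 0.76 (limma adjusted p = 0.0374 for each). PADI3, which converts arginine to citrulline in filaggrin and trichohyalin, had 0.56, SERPINB8 0.49, the tight junction gene CLDN1 0.47 and the ubiquitous transglutaminase TGM2 0.38. KRT10, the keratin of the first suprabasal layers, had 0.72 without passing (limma adjusted p = 0.111), while KRT80 had −0.43 (limma adjusted p = 0.0565). The KRT10 groups overlapped, with 5.59 FPKM in BCL9 KD replicate 1 and 5.75 FPKM in NS control replicate 3. The suprabasal keratins KRT1 and KRT2 had no reads, and LOR, DSG1 and DSC1 had at most 4 reads in a sample. The median was 0.22 over the 31 of them with both group means at 0.5 FPKM or above, and the 7 calls fell to 0 without NS control replicate 2, BCL9 KD replicate 2 or BCL9 KD replicate 3.

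Of 28 regulators of squamous differentiation, 23 were tested and 4 passed, all lower in BCL9 KD, beside 2.91% lower over all genes tested. With other settings some regulators passed on the higher side, 2 of 7 with voom, 3 of 8 with the GC correction, 1 of 6 with a mean of at least 1 FPKM, 1 of 5 with 1 FPKM added, 1 of 4 without NS control replicate 1 and 1 of 7 without NS control replicate 3. In the same order, these settings called 1389, 1752, 1008, 841, 690 and 1729 genes of all tested, against 807. The 4 regulators were the Notch receptors NOTCH1 (log2 fold change −0.51), NOTCH2 (−0.51) and NOTCH3 (−0.69), which turn on suprabasal genes in keratinocytes, and the AP-1 subunit FOSL2 (−0.46). NOTCH1 fell from 30.1 ± 2.89 to 20.9 ± 1.32 FPKM (SD, n = 3 each) and FOSL2 from 62.4 ± 4.17 to 45.2 ± 2.17 FPKM (SD, n = 3 each). The 19 others ran from −0.51 for VDR, the vitamin D receptor (limma adjusted p = 0.0566), to 0.38 for MAF (limma adjusted p = 0.0544), and neither of these groups overlapped. Of the 23 genes, 15 had values below 0 and 8 above, TP63 among the latter at 0.27 (limma adjusted p = 0.180). The median over the 23 genes was −0.09. The 4 calls were 0 without NS control replicate 2, BCL9 KD replicate 2 or BCL9 KD replicate 3. They were 7 without NS control replicate 3, where 1729 of all genes tested passed. Among 17 genes of the basal layer, all tested, KRT15 (0.35) and COL17A1 (0.44) passed and were higher, beside the same 2.96% of all genes tested, KRT5 and KRT14 had 0.05 and 0.07, and the median was 0.05, next to the 0.04 of all genes tested.

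**Figure D4:**
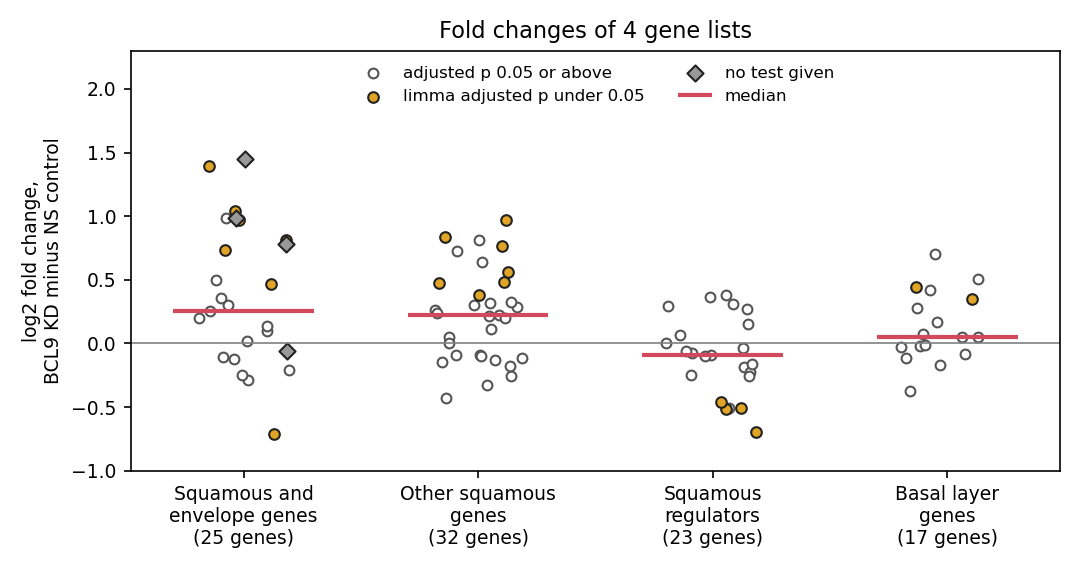
Log2 fold changes, BCL9 KD minus NS control, of the genes in the fit from 4 lists, with 25, 32, 23 and 17 genes from left to right. Points are genes spread sideways for legibility, filled where the limma adjusted p-value is under 0.05, grey diamonds are the 4 genes of the first list for which no test is given, and the red bars are medians of the genes with both group means at 0.5 FPKM or above, CSTA left out. The filled points are above 0 for the squamous lists apart from IVL, and below 0 for the 4 regulators that passed.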

How the data were processed

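RNA was sequenced from 3 NS control and 3 BCL9 KD flasks of DCIS.COM cells. According to the methods and the labels, STAR was the aligner of the paired-end reads and HTSeq the counter, and the authors deposited FPKM computed from count, gene length and reads counted. The submitters' processing notes name hg38, HTSeq 0.6.1 and CASAVA. The methods name 2 biological replicates per condition, the labels 3. The table also holds, as other values, the deposited gene lengths. For differential expression the methods name DESeq2 and, for comparisons without biological replicates, edgeR. Because the deposited unit is FPKM, limma 3.58.1 (R 4.3.3) with an empirical Bayes trend was fitted here on log2(FPKM + 0.5) for the 13745 genes whose mean FPKM reached 0.5, with Benjamini-Hochberg adjustment over all of them and a threshold of 0.05. Fold changes on this scale understate those of low genes. FPKM multiplied by gene length gave whole reads for 100% of values within 0.1 read, which gave the depths. Replicates of a group correlated at 0.964 to 0.987 (Pearson, log2 values). Tables and plots used Python 3.11, numpy 2.4.6, pandas 2.3.3 and matplotlib 3.10.9, and the fit was tested on simulated data.

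The genes and lists were chosen with earlier results of these data known. All 50 genes are named. Values in every sample are given for genes that passed, for tested cystatins, SPRR genes, kallikreins and transcription factors, and for genes without overlap between the groups. PPL and ABCA12 fall outside that rule and were added, as were SERPINB3, SCEL and CALML5, after their values were seen. Of the other lists, the genes that passed are named, and KRT10, KRT80, KRT1, KRT2, LOR, DSG1, DSC1, VDR, TP63, MAF, KRT5 and KRT14 were added in the same way. Promoter windows came from RefSeq on GRCh38.p14, and 46 of 47 lay within 1000 bases of the gene in the deposited table. Alternatives were other added values and filters, median-of-ratios scaling, voom on recovered reads, a loess GC correction (span 0.3), the replicate number as a block, and leaving out each sample.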

Additional observations from a re-analysis of the deposited data

How the results depend on the processing

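Of the 50 genes, 7 passed of the 21 for which a test is given, and CSTA, SPRR1B, SPRR2D and PRDM1 are left out of the counts here. The same 7 passed with an added value of 1 or 0.1 FPKM, with a mean FPKM of at least 1 and with voom on recovered reads, and 6 with median-of-ratios scaling. The count was 2 with no filter on FPKM, 0 with the replicate block, where 12 had an unadjusted limma p under 0.05, 11 with the GC correction and 4 with both the block and that correction. Using both was an alternative chosen after seeing the data, under which IVL (limma adjusted p = 0.117), PI3 (0.0519) and SERPINB1 (0.0615) were lost. KLK10, SPRR2A, SBSN and DMKN, which passed with the GC correction alone, did not pass with both, at limma adjusted p-values of 0.0610 (DMKN) to 0.0871 (SPRR2A). Over all genes the settings with no filter, the block, the GC correction and both called 142, 0, 1752 and 320, and voom 1389, against 807. In the same order, the other squamous genes that passed numbered 1, 0, 12 and 5 (against 7), the regulators 0, 0, 8 and 0 (against 4, and 7 with voom) and the basal layer genes 1, 0, 6 and 1 (against 2, and 1 with median-of-ratios scaling). The median log2 fold change of all genes of the list that were fitted was 0.14 with no filter, over 42 genes. BCL9 had a log2 fold change of −0.99 and a limma adjusted p of 0.0656 with the replicate block.

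With each sample left out in turn, the calls ran from 0 to 8 (0 to 9) for the 50 genes, 0 to 11 for the other squamous genes, 0 to 7 for the regulators and 0 to 4 for the basal layer, each at 0 without NS control replicate 2, BCL9 KD replicate 2 or BCL9 KD replicate 3 (limma, with 11, 11 and 12 unadjusted p-values under 0.05 among the 21 genes, and 12, 13 and 5 calls over all genes). The median of all genes of the list that were fitted ran from 0.26 to 0.44 and the value of BCL9 from −1.06 to −0.95. KLK6 changed sign, to −0.00597 with median-of-ratios scaling, −0.17 without NS control replicate 2 and −0.07 without BCL9 KD replicate 2, and SPRR1A to −0.14 without BCL9 KD replicate 2, and with single samples left out they ran from −0.17 to 0.12 and from −0.14 to 0.47. No other tested gene of the 50 changed sign. The labels do not say whether flasks of the same number were handled together. Deviations from the group means correlated at −0.0795 on average between flasks of the same number, from −0.147 to −0.00287. Between flasks of different numbers the average was 0.0387. With 3 flasks per group these values cannot settle whether the flasks were paired. The causes of these changes were not tested. The counts of reads limit what can be said of SPRR1A, SPRR1B and the genes with at most a few reads.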
